A study of Mus musculus with 12 samples.

Results

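Astrocytes regulate synapses through proteins they secrete or hold at their surface and through receptors with which they engulf synaptic material. The 10 genes described here, of 41388 listed by Ensembl identifier, were taken by name: Sparc, Sparcl1, Thbs1, Thbs2, Thbs4, Gpc4, Gpc6, Chrdl1, Megf10 and Mertk. All 10 matched 1 identifier each and passed the filter on low counts. The thrombospondins and Sparcl1 (hevin) promote the formation of excitatory synapses, and Sparc opposes the action of Sparcl1. The glypicans Gpc4 and Gpc6 bring AMPA glutamate receptors to young synapses, and Chrdl1 promotes the later switch of those receptors to a mature subunit composition. Megf10 and Mertk are phagocytic receptors through which astrocytes take up synapses.

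The 12 RNA-seq libraries came from mice of strain C57/Bl6, aged 21 days after birth (postnatal day 21), that carried Aldh1L1::RPL10a-eGFP. The tissue was cortex with hippocampus. This bacTRAP transgene puts a fluorescent tag on a ribosomal protein under the Aldh1l1 promoter, which is used to target astrocytes, so the purified RNA is only as specific to astrocytes as that promoter and the pull-down are. In translating ribosome affinity purification (TRAP), an antibody against the tag recovers the tagged ribosomes with the messages they carry. The groups, of 3 libraries each, were the lysate before that pull-down (cortex input), the pulled-down RNA (cortex TRAP), a synaptoneurosome layer from a sucrose gradient before pull-down (synaptoneurosome input) and the RNA pulled down from this layer (PAP TRAP, for peripheral astrocyte process). Synaptoneurosomes are pinched-off synaptic endings together with the membranes around them. All groups, inputs included, carried the transgene and received cycloheximide at 1 ug/mL, which holds ribosomes on their messages, and TTX, a sodium channel blocker, at 1 mM. The labels call every sample astrocytes, although the inputs are lysates of mixed tissue, and give every sample the same text on extraction. They do not say whether the replicates of a group came from separate animals, so the p-values measure the spread between these libraries, which may in part be technical.

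Each library held between 4918113 and 17553985 gene counts. The 37 mitochondrial genes took 83.8% to 91.9% of them in synaptoneurosome input, 44.8% to 50.2% in cortex input, 35.6% to 47.6% in PAP TRAP and 1.03% to 1.28% in cortex TRAP. The nuclear genes were thus left with 1423296 to 7777763 counts per library, fewest in synaptoneurosome input. The Aldh1l1 message, which the purification should enrich, was higher in cortex TRAP than in cortex input by 3.46 ± 0.46 on the log2 scale (SE, adjusted p = 7.06e-06), and by 1.44 ± 0.44 in PAP TRAP over its input without passing the threshold (adjusted p = 0.0685). Summed over 17 astrocyte markers, the share of nuclear counts was 0.896% to 0.978% in cortex input, 7.99% to 11.3% in cortex TRAP, 4.24% to 5.10% in synaptoneurosome input and 5.09% to 9.94% in PAP TRAP. All 17 markers had counts in every group, but Slc1a2, a glutamate transporter, alone made up 67.0% to 73.8%, 47.4% to 60.3%, 83.9% to 84.7% and 80.6% to 81.2% of these sums, in the same order of groups, so they mostly report 1 message. Between the inputs 14 of the 17 were higher in the layer, not Aldh1l1 (0.49 ± 0.44), F3 (0.35 ± 0.44) or Gjb6 (1.22 ± 0.42). PAP TRAP replicate 2 stood apart with the highest astrocyte share of its group. For some values that rest on it, though not all, the value without it is also given below.

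Levels below are normalized CPM (counts scaled to library size), adjusted by the trimmed mean of M-values. Together, the 10 genes took 0.0755% to 0.0981% of nuclear counts before pull-down (cortex input) and 0.853% to 0.978% after it (cortex TRAP). They held 0.385% to 0.559% in synaptoneurosome input and 0.554%, 0.981% and 0.600% in the PAP TRAP replicates 1, 2 and 3. Sparc and Sparcl1 made up most of these counts.

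In the whole tissue, 7 of the 10 genes were higher in cortex TRAP than in cortex input, against a background of 15.9% of the 13364 genes tested. These were Sparc, Sparcl1, Thbs4, Gpc6, Chrdl1, Megf10 and Mertk, between 4.39-fold and 45.4-fold. None was lower in the edgeR quasi-likelihood test (background 19.5%), 0 at an unadjusted p under 0.05 and 0 by DESeq2. Thbs1, Thbs2 and Gpc4 did not pass the threshold. The median log2 change was 3.0 over the 10 genes and 0.05 over all genes tested. In the synaptoneurosome layer, Sparc was higher (background 3.0%) and Gpc6 lower (background 1.53%) in PAP TRAP than in its input. No other of the 10 genes passed in edgeR. At an unadjusted p under 0.05, 4 were higher and 1 lower, and by DESeq2 2 were higher and 1 lower. The median was 0.04 against 0.06 over all genes.

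Between the pull-downs, 3 of the 10 genes (Gpc6, Chrdl1 and Mertk) were lower in PAP TRAP than in cortex TRAP, beside a background of 14.6%. None was higher in the edgeR test (background 19.3%), with 1 at an unadjusted p under 0.05 and 1 by DESeq2, in both cases Thbs2. The median of the 10 genes, -0.28, equalled that of all genes tested. The median over all genes was -0.11 without mitochondrial genes, -0.09 with thinned counts, -0.12 with the pull-downs fitted alone and 0.00 with no filter. Between the inputs, 6 of the 10 genes were higher in the synaptoneurosome layer (background 7.26%; 8 by DESeq2 and 8 at an unadjusted p under 0.05), with a median of 2.62 against -0.14 over all genes. None was lower (background 2.07%), with 0 at an unadjusted p under 0.05 and 0 by DESeq2. In these bulk libraries, fewer cells of a type and less RNA per cell cannot be told apart.

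**Figure D1:**
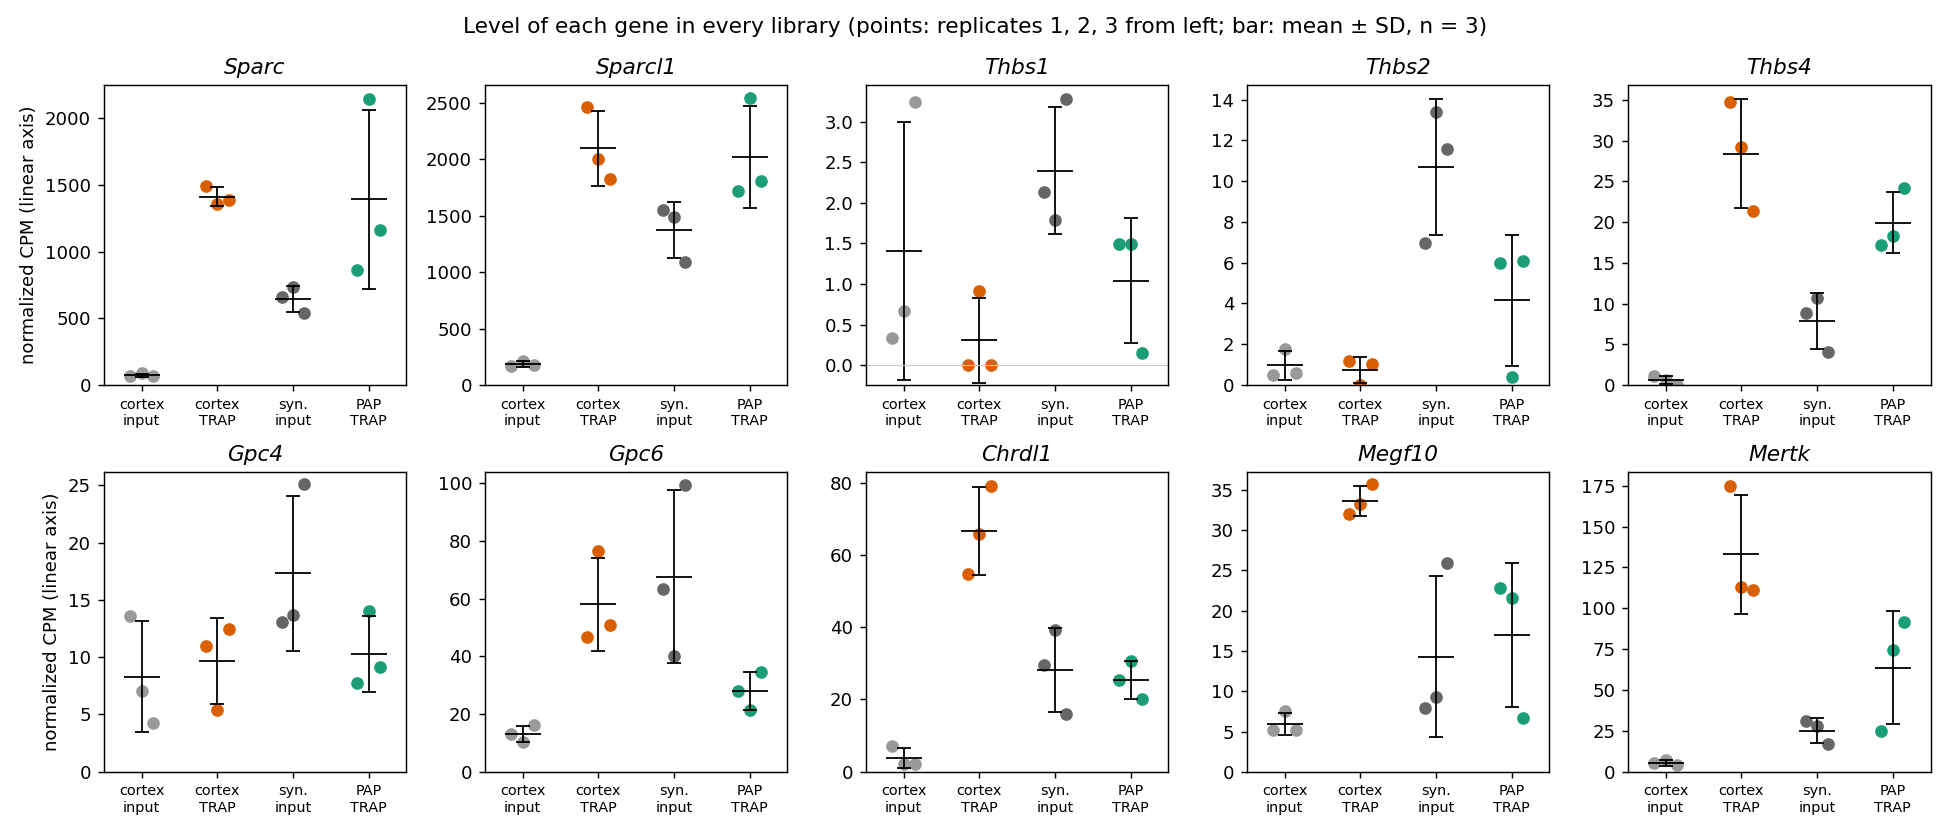
Normalized CPM (linear axes) of each of the 10 genes in the 12 libraries, one panel per gene, with mean ± SD (n = 3) and points for replicates 1, 2 and 3 of cortex input, cortex TRAP, synaptoneurosome (syn.) input and PAP TRAP. Mertk rises from 4.03 to 7.38 in cortex input to 111 to 175 in cortex TRAP, whereas Gpc4 lies between 4.22 and 25.1 in all 4 groups.

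The secreted matricellular proteins Sparc and Sparcl1 were the most abundant of the 10 genes. Sparc (chromosome 11, 55394500 to 55423183, GRCm38) was at 67.1, 87.1 and 67.2 normalized CPM in cortex input and at 1488, 1356 and 1389 in cortex TRAP. It was at 657, 734 and 543 in synaptoneurosome input and at 865, 2144 and 1163 in PAP TRAP. Cortex input was lowest, every PAP TRAP library was above every synaptoneurosome input, and the PAP TRAP and cortex TRAP libraries overlapped.

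Sparc was 19.1-fold higher in cortex TRAP than in cortex input (95% interval 12.1 to 30.1, adjusted p = 8.66e-09) and 8.74-fold higher in synaptoneurosome input than in cortex input (5.68 to 13.4, adjusted p = 1.99e-06). In PAP TRAP it was 2.16-fold above its input (1.44 to 3.22, adjusted p = 0.0272). This last call was lost without any 1 of the synaptoneurosome inputs 1, 2 and 3 (adjusted p = 0.0831, 0.0602 and 0.0981) and without PAP TRAP replicate 2, where the log2 change went from 1.11 to 0.66 (adjusted p = 0.138). It was also lost with thinned counts (0.0538) and with GC-corrected offsets (0.0800). PAP TRAP and cortex TRAP differed by -0.02 ± 0.27 on the log2 scale, with a 95% interval of -0.59 to 0.55. The sign of this value turned under RLE scaling (0.02). Without PAP TRAP replicate 2, the highest of its group, the difference was -0.47.

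Sparcl1 (chromosome 5, 104079111 to 104113733) followed the same order of groups. Its level was 168, 214 and 177 normalized CPM in cortex input, 2466, 2006 and 1826 in cortex TRAP, 1550, 1487 and 1093 in synaptoneurosome input, and 1721, 2542 and 1809 in PAP TRAP. All 3 pull-downs from the layer lay above their inputs, by less than the pull-downs from the whole tissue did.

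Sparcl1 was 11.3-fold higher in cortex TRAP than in cortex input (7.82 to 16.2, adjusted p = 6.95e-09) and 7.39-fold higher in synaptoneurosome input than in cortex input (5.18 to 10.5, adjusted p = 7.86e-07). The excess in PAP TRAP over its input was 1.47-fold (1.05 to 2.05) and did not pass the threshold (adjusted p = 0.175). PAP TRAP differed from cortex TRAP by -0.05 ± 0.23 on the log2 scale (95% interval -0.53 to 0.42), which turned to 0.08 without mitochondrial genes. Without PAP TRAP replicate 2 it was -0.25.

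The ratio of Sparcl1 to Sparc within a library, from counts per kilobase of exon, does not depend on how libraries are scaled. It was 3.23, 3.17 and 3.39 in cortex input and 2.14, 1.91 and 1.70 in cortex TRAP. In the layer it was 3.04, 2.61 and 2.60 before pull-down and 2.57, 1.53 and 2.01 after it. In both preparations, every pull-down library had a lower ratio than every input library. The log2 ratio differed by -0.78 between cortex TRAP and cortex input, by -0.46 between PAP TRAP and synaptoneurosome input and by -0.25 between the inputs. Each of these reached p = 0.100 in a two-sided exact permutation test, the smallest p that 3 against 3 libraries allow (0.133 adjusted over 4 comparisons). Between PAP TRAP and cortex TRAP the difference was 0.06 (exact permutation p = 0.900).

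**Figure D2:**
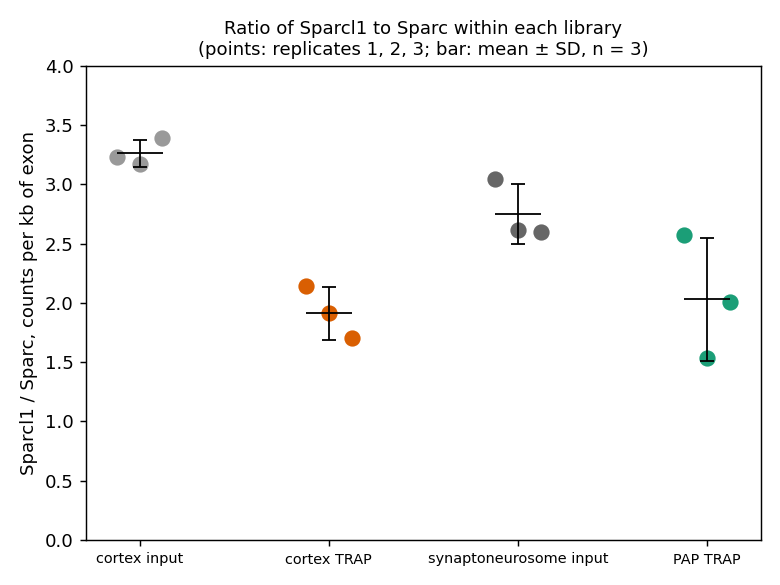
Ratio of Sparcl1 to Sparc, in counts per kb of exon, in each library of the 4 groups (points, replicates 1 to 3 from left to right) with mean ± SD (n = 3). Cortex input lies between 3.17 and 3.39 and cortex TRAP between 1.70 and 2.14, with no overlap.

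The thrombospondins are large extracellular glycoproteins, and their receptor at the synapse is the neuronal calcium channel subunit Cacna2d1. Thbs4 was the most abundant of the 3 in both pull-downs per kilobase. Thbs1 was near the limit of detection, as was Thbs2 in both cortex groups. In the layer Thbs2 had 23, 45 and 60 counts before pull-down and 68, 5 and 78 after it. As examples of start regions, RefSeq sequences (GRCm38.p6) are given for the 250 bases before the start of 3 genes. These are Thbs4, which was high in cortex TRAP, Thbs2, which was not, and the phagocytic receptor Mertk. Capitals mark the short core of the site of NFI, a family of astrocyte transcription factors, searched as TTGGC or GCCAA on both strands.
Thbs4, minus strand, chr13:92794819-92795068: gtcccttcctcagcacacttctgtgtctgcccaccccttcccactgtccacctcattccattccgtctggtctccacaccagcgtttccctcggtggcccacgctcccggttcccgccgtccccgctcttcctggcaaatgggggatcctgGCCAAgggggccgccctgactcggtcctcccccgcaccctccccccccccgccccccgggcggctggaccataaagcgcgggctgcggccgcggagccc
Thbs2, minus strand, chr17:14694263-14694512: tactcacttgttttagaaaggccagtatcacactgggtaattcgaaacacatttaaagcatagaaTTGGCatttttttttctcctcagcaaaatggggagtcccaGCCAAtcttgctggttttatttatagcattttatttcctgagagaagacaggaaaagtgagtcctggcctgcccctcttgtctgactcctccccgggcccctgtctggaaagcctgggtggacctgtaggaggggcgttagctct
Mertk, plus strand, chr2:128698665-128698914: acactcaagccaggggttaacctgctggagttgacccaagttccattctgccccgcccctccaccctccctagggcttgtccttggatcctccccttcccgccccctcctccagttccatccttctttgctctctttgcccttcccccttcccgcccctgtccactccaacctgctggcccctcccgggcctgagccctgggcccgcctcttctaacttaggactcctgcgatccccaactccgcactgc
The window of Thbs4 held 1 such match, that of Thbs2 held 2 and that of Mertk held 0, and 41.5% of the 32851 promoter windows of this length held at least 1. The SOX core ACAAT or ATTGT was in none of the 3 and in 27.7% of all windows. The matches are a description of these letters only.

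Thbs4 (chromosome 13, 92751590 to 92794818) was at 1.11, 0.665 and 0.0611 normalized CPM in cortex input, which rests on 20, 10 and 1 counts. It reached 34.7, 29.2 and 21.4 in cortex TRAP, 8.81, 10.7 and 4.05 in synaptoneurosome input and 17.2, 18.3 and 24.2 in PAP TRAP. Every library of the other groups was above every cortex input, and the PAP TRAP libraries were all above their inputs.

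Thbs4 was 45.4-fold higher in cortex TRAP than in cortex input (17.2 to 120, adjusted p = 2.51e-06). On the log2 scale this 5.50 became 6.12 without cortex input replicate 1, 4.83 without cortex input replicate 3 and 7.35 with thinned counts. Synaptoneurosome input was 12.4-fold above cortex input (4.90 to 31.6, adjusted p = 0.00107), or 4.40 in place of 3.64 on the log2 scale without cortex input replicate 1 and 5.46 with thinned counts. PAP TRAP was 2.55-fold above its input (1.13 to 5.78, adjusted p = 0.182) and 0.700-fold of cortex TRAP (0.322 to 1.52, adjusted p = 0.476), neither past the threshold.

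Thbs2 (chromosome 17, 14665500 to 14694235) was at 0.498, 1.79 and 0.611 normalized CPM in cortex input and at 1.19, 0 and 1.02 in cortex TRAP. In synaptoneurosome input it was at 6.99, 13.4 and 11.6, and in PAP TRAP at 5.97, 0.413 and 6.06. Its highest levels were in the synaptoneurosome inputs, all above all cortex inputs, and PAP TRAP replicate 2 lay far under the other PAP TRAP libraries. The change between the inputs was 11.0-fold (2.28 to 52.9) and just missed the threshold (adjusted p = 0.0512). It passed under 6 of 14 alternatives (adjusted p between 0.00204 and 0.0481) and not under the other 8 (up to 0.185). PAP TRAP was 5.47-fold above cortex TRAP (1.20 to 25.0, adjusted p = 0.0772). This passed by DESeq2 (0.0223), with no filter (0.0386) and without PAP TRAP replicate 2 (0.0280), and not under the other 11 alternatives (up to 0.278). Neither pull-down was called above its own input. PAP TRAP was 0.389-fold of its input (0.0914 to 1.66, adjusted p = 0.484), with every library under every input. Cortex TRAP was 0.780-fold of cortex input (0.177 to 3.45, adjusted p = 0.820).

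As a sum, the 10 markers of leptomeningeal fibroblasts, cells of the brain's covering that also make extracellular matrix, were highest in synaptoneurosome input. In PAP TRAP their sum overlapped that in cortex input and was lowest in the same replicate as Thbs2. Their summed share of nuclear counts was 0.0185% to 0.0278% in cortex input, 0.0131% to 0.0158% in cortex TRAP, 0.0297% to 0.0487% in synaptoneurosome input, and 0.0189%, 0.00889% and 0.0180% in the PAP TRAP replicates. None of the 10 was at 0 in a whole group, and 3 of the 9 tested were higher in synaptoneurosome input than in cortex input (background 7.26%). By edgeR 0 were lower (background 2.07%), with 1 lower at an unadjusted p under 0.05 and 0 by DESeq2. The low sum in PAP TRAP replicate 2 was not particular to fibroblasts. That replicate was also lowest of its group for neuron (0.518%), myelinating oligodendrocyte (0.802%), oligodendrocyte precursor (0.0194%) and microglia (0.0306%) markers. For endothelial, pericyte and ependyma markers it was not. Microglia markers, too, were highest in synaptoneurosome input (0.0748% to 0.157%). The part of fibroblasts or of other cells in the Thbs2 levels was not tested.

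Thbs1 (chromosome 2, 118111876 to 118127133) had 6, 10 and 53 counts in the cortex inputs, 0, 11 and 0 in cortex TRAP, 7, 6 and 17 in synaptoneurosome input and 17, 18 and 2 in PAP TRAP. No group stood apart from all others, and no comparison passed the threshold (adjusted p between 0.256 and 0.780). Without cortex TRAP replicate 2, which leaves that group at 0 counts, Thbs1 was called lower in cortex TRAP than in cortex input (adjusted p = 0.0111) and higher in PAP TRAP than in cortex TRAP (0.0179). An antisense gene, Gm29233, shares 208 exon bases with Thbs1 (3.42% of its exon length), and the strand setting of the counting is not given in the sources used here. Thbs3, the remaining family member tested, was at 3.97, 4.23 and 6.39 normalized CPM in cortex TRAP and at 1.22, 0.864 and 0.367 in cortex input (adjusted p = 0.125).

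Gpc4 and Gpc6, heparan sulfate proteoglycans anchored to the cell surface by a lipid and released from it, differed in their calls, with Gpc6 past the threshold in all 4 comparisons between groups and Gpc4 in none. Gpc6 (chromosome 14, 116925315 to 117976544) was at 13.1, 10.5 and 16.1 normalized CPM in cortex input, 46.9, 76.6 and 50.8 in cortex TRAP, 63.5, 40.0 and 99.6 in synaptoneurosome input and 28.0, 21.4 and 34.7 in PAP TRAP. The PAP TRAP libraries lay between cortex input and both other groups, without overlap.

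Gpc6 was 4.39-fold higher in cortex TRAP than in cortex input (2.61 to 7.40, adjusted p = 0.000106) and 5.13-fold higher in synaptoneurosome input than in cortex input (3.02 to 8.70, adjusted p = 0.000325). It was 2.42-fold lower in PAP TRAP than in synaptoneurosome input (1.45 to 4.03, adjusted p = 0.0442) and 2.07-fold lower than in cortex TRAP (1.25 to 3.43, adjusted p = 0.0258). The first of these calls was lost without synaptoneurosome input replicate 1 or 3 or any 1 PAP TRAP library (adjusted p between 0.0623 and 0.230), most without synaptoneurosome input replicate 3, where -1.27 became -0.87, and also without mitochondrial genes (0.0628), with thinned counts (0.186) and with GC-corrected offsets (0.0532). The second was lost without cortex TRAP replicate 2 or 3 or PAP TRAP replicate 1 or 2 (0.0569 to 0.190), with thinned counts (0.156), with GC-corrected offsets (0.0762) and with the groups alone (0.0740), and -1.05 became -0.67 without cortex TRAP replicate 2.

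Gpc4 (X chromosome, 52053021 to 52165252) was at 13.6, 7.05 and 4.22 normalized CPM in cortex input, 11.0, 5.39 and 12.5 in cortex TRAP, 13.1, 13.7 and 25.1 in synaptoneurosome input and 7.72, 14.0 and 9.17 in PAP TRAP. The groups overlapped in every comparison, and none passed (adjusted p between 0.220 and 0.906). For cortex TRAP against cortex input, the 95% interval on the log2 scale was -0.86 to 1.30. The sign of this value turned with thinned counts (-0.01).

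Of the glypican family, 4 of 6 genes passed the filter. Among these, the 2 genes Gpc5 and Gpc6 were higher in cortex TRAP than in cortex input (background 15.9%). None was lower by edgeR (background 19.5%), at an unadjusted p under 0.05 or by DESeq2. Gpc5 was at 3.27, 4.79 and 4.95 normalized CPM in cortex input and at 75.4, 78.2 and 75.8 in cortex TRAP, a log2 change of 4.14 ± 0.45 (adjusted p = 7.28e-07). In PAP TRAP it was at 28.4, 83.5 and 47.6, against 14.6, 42.7 and 20.1 in the inputs, which overlap (adjusted p = 0.152). Unlike Gpc6, Gpc5 did not pass between the pull-downs (-0.52 ± 0.40, adjusted p = 0.318), and whether the glypicans differ from each other there was not tested.

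Chrdl1 (X chromosome, 143285674 to 143394262) is a secreted antagonist of bone morphogenetic proteins (BMPs). It was at 7.03, 2.19 and 2.14 normalized CPM in cortex input and at 54.8, 65.7 and 79.1 in cortex TRAP. In synaptoneurosome input it was at 29.5, 39.1 and 16.0, and in PAP TRAP at 25.5, 30.7 and 20.1. The cortex TRAP libraries were above all others, and the groups of the layer overlapped.

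Chrdl1 was 17.4-fold higher in cortex TRAP than in cortex input (8.65 to 35.1, adjusted p = 1.6e-06), with 4.79 in place of 4.12 on the log2 scale without cortex input replicate 1, the highest of that group. Between the inputs it was 7.36-fold higher in the synaptoneurosome layer (3.75 to 14.4, adjusted p = 0.000473), with 3.68 in place of 2.88 without the same library. PAP TRAP was 0.905-fold of its input (0.485 to 1.69, adjusted p = 0.898). It was 2.62-fold lower in PAP TRAP than in cortex TRAP (1.40 to 4.88, adjusted p = 0.0177), a call lost without cortex TRAP replicate 2 or 3 or PAP TRAP replicate 1 or 3 (adjusted p = 0.0547, 0.0944, 0.0548 and 0.0677).

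Among 7 tested genes of the chordin and BMP antagonist list, Chrdl1 alone was higher in cortex TRAP than in cortex input (background 15.9%). The 2 that were lower (background 19.5%) included Fst, which had 0 counts in all cortex TRAP libraries. Of 9 BMP ligands and receptors, 3 were higher (background 15.9%) and 2 lower (background 19.5%) there. The receptors Bmpr1b and Bmpr1a were higher by 3.60 ± 0.46 and 2.10 ± 0.35 on the log2 scale, as was the ligand Bmp7 by 2.15 ± 0.69. The receptors Bmpr2 and Acvr2a were lower (-1.0 ± 0.21 and -2.34 ± 0.40). In PAP TRAP against its input, 2 of the 9 were lower (background 1.53%), with Bmpr2 at -0.82 ± 0.21 (adjusted p = 0.0319). None was higher by edgeR (background 3.0%), at an unadjusted p under 0.05 or by DESeq2.

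The receptor tyrosine kinase Mertk binds bridging proteins that coat exposed phosphatidylserine, and Megf10 is a scavenger-type receptor with many EGF-like repeats. Mertk (chromosome 2, 128698956 to 128802894) was at 5.10, 7.38 and 4.03 normalized CPM in cortex input, 175, 113 and 111 in cortex TRAP, 31.0, 27.8 and 16.8 in synaptoneurosome input and 25.1, 74.3 and 91.5 in PAP TRAP. The cortex TRAP libraries were above all others. PAP TRAP replicate 1 lay within the range of the inputs, and replicates 2 and 3 lay above it.

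Mertk was 24.2-fold higher in cortex TRAP than in cortex input (12.5 to 46.9, adjusted p = 2.28e-07) and 4.55-fold higher in synaptoneurosome input than in cortex input (2.47 to 8.41, adjusted p = 0.00230). In PAP TRAP it was 2.54-fold above its input (1.41 to 4.57) without passing the threshold (adjusted p = 0.0638). It passed without PAP TRAP replicate 1 (0.0125), with no filter on low counts (0.00360), without mitochondrial genes (0.0406) and by DESeq2 (0.0308). It did not pass under the other 10 of 14 alternatives (adjusted p up to 0.225, log2 change down to 0.99). It was 2.09-fold lower in PAP TRAP than in cortex TRAP (1.18 to 3.70, adjusted p = 0.0431), a call lost without any 1 of the libraries cortex TRAP 1, 2 and 3 and PAP TRAP 1 and 2 (0.0558 to 0.240), without mitochondrial genes (0.0709), with thinned counts (0.0787), with GC-corrected offsets (0.0832) and with the groups alone (0.146). The log2 change was -0.69 in place of -1.07 without cortex TRAP replicate 1 and -0.68 without PAP TRAP replicate 1.

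Microglia, the brain's resident phagocytes, also express Mertk. The 13 microglia markers took 0.0164% to 0.0201% of nuclear counts in cortex input, 0.00424% to 0.00576% in cortex TRAP, 0.0748% to 0.157% in synaptoneurosome input and 0.0306% to 0.0442% in PAP TRAP, and none was at 0 in a whole group. Their share was lowest in cortex TRAP and highest in synaptoneurosome input. Between the inputs, 8 of the 13 markers were higher in the layer (background 7.26%). The part of microglia in the Mertk levels of any group was not tested.

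Megf10 was at 5.15, 7.58 and 5.13 normalized CPM in cortex input, 32.0, 33.3 and 35.7 in cortex TRAP, 7.90, 9.26 and 25.9 in synaptoneurosome input and 22.8, 21.6 and 6.68 in PAP TRAP. The cortex TRAP libraries were above all others, and each group of the layer held 1 library apart from the other two. Megf10 was 5.65-fold higher in cortex TRAP than in cortex input (2.69 to 11.9, adjusted p = 0.000728). It was 2.44-fold higher in synaptoneurosome input than in cortex input (1.17 to 5.06, adjusted p = 0.121) and 1.98-fold lower in PAP TRAP than in cortex TRAP (0.975 to 4.01, adjusted p = 0.127), neither past the threshold. The former passed by DESeq2 (adjusted p = 0.0432). PAP TRAP against its input gave 0.23 ± 0.49 on the log2 scale (adjusted p = 0.854), and the sign turned without synaptoneurosome input replicate 1 (-0.05) and with thinned counts (-0.02).

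Of 6 TAM receptors and bridging ligands, 5 were higher (background 15.9%) and 1 lower (background 19.5%) in cortex TRAP than in cortex input. The receptor Axl was at 5.21, 5.85 and 2.57 normalized CPM in cortex input and at 67.2, 98.3 and 109 in cortex TRAP (log2 change 4.33 ± 0.49, adjusted p = 9.86e-07). The receptor Tyro3 was at 16.0, 18.4 and 15.2 and at 1.64, 0.166 and 3.88 in the same groups (-3.09 ± 0.61, adjusted p = 0.000540). Axl and Mertk were thus high in cortex TRAP and Tyro3 low. The bridging ligands Mfge8 (4.25 ± 0.53), Pros1 (2.68 ± 1.03) and Gas6 (1.04 ± 0.39) were higher, the last 2 close to the threshold (adjusted p = 0.0490 and 0.0460). None of the 6 passed in PAP TRAP against its input in edgeR (1 at an unadjusted p under 0.05 and 1 by DESeq2, both higher).

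Among the MEGF and engulfment receptors, 4 of 10 were tested. Of these, 2 were higher (background 15.9%) and 1 lower (background 19.5%) in cortex TRAP than in cortex input. Megf11, the closest relative of Megf10, was at 25.4, 28.4 and 12.8 normalized CPM in cortex input and at 3.40, 0.912 and 0.359 in cortex TRAP (-3.81 ± 0.61, adjusted p = 6.46e-05), the opposite direction to Megf10. Lrp1, a large endocytic receptor, was higher in cortex TRAP (0.68 ± 0.26, adjusted p = 0.0476) and higher again in PAP TRAP than in cortex TRAP (2.68 ± 0.27, adjusted p = 3.12e-07). Of 14 genes of the engulfment pathway, 6 were higher (background 15.9%) and 2 lower (background 19.5%) in cortex TRAP than in cortex input. Dock1 (3.65 ± 0.44) and Rac1 (1.36 ± 0.23), a guanine nucleotide exchange factor and its GTPase, were higher, and Elmo1, a partner of Dock1, was lower (-2.26 ± 0.30). Its relative Elmo2 was at 40.2, 27.4 and 29.5 normalized CPM in cortex input and at 54.4, 54.2 and 58.6 in cortex TRAP. In PAP TRAP against its input none of the 14 passed in edgeR (1 at an unadjusted p under 0.05, higher, and 0 by DESeq2).

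Of the 8 genes of the SPARC family, Sparc and Sparcl1 were higher in cortex TRAP than in cortex input (background 15.9%). The proteoglycans Spock1 (-3.90 ± 0.31), Spock2 (-1.06 ± 0.34) and Spock3 (-3.74 ± 0.56) were lower (background 19.5%). Spock1 and Spock3 were also lower in PAP TRAP than in its input (-1.26 ± 0.28 and -1.89 ± 0.50, adjusted p = 0.0149 and 0.0376).

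The pull-down over input was smaller in the layer than in the whole tissue for 7 of the 10 genes, by the test of the difference itself (background 7.32%). None was larger by edgeR (background 12.9%), with 0 at an unadjusted p under 0.05 and 0 by DESeq2. The log2 difference was -4.27 ± 0.63 for Chrdl1, -4.15 ± 0.83 for Thbs4, -3.41 ± 0.50 for Gpc6, -3.25 ± 0.58 for Mertk, -3.15 ± 0.40 for Sparc, -2.94 ± 0.33 for Sparcl1 and -2.27 ± 0.70 for Megf10. Without cortex input replicate 1 the value was -4.93 for Chrdl1 and -4.77 for Thbs4, without cortex input replicate 3 it was -3.48 for Thbs4, and with thinned counts -4.94 and -6.08. Megf10 had an adjusted p of 0.0272 and lost its call without cortex input replicate 1 or 3, cortex TRAP replicate 2 or 3, synaptoneurosome input replicate 3 or PAP TRAP replicate 3 (0.0518 to 0.132), going to -1.48 without synaptoneurosome input replicate 3. The median was -3.04 over the 10 genes and 0.03 over all genes tested.

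Among the 17 astrocyte markers, all 17 were higher in cortex TRAP than in cortex input (median 3.99), 5 were higher in PAP TRAP than in its input (median 0.79), and for all 17 the second enrichment was smaller (median of the difference -3.14). In PAP TRAP against cortex TRAP, 14 of the 17 markers were lower (median -1.53, background 14.6%), against 3 of the 10 genes (median -0.28). The markers Slc1a2 (0.36 ± 0.24, adjusted p = 0.270), Kcnj10 (-0.14 ± 0.29, adjusted p = 0.733) and Slc4a4 (-0.56 ± 0.22, adjusted p = 0.0607) did not pass. Sparc at -0.02 and Sparcl1 at -0.05 lay above that marker median, and Chrdl1 at -1.39 lay near it. Whether the 10 genes differ from the markers was not tested.

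**Figure D3:**
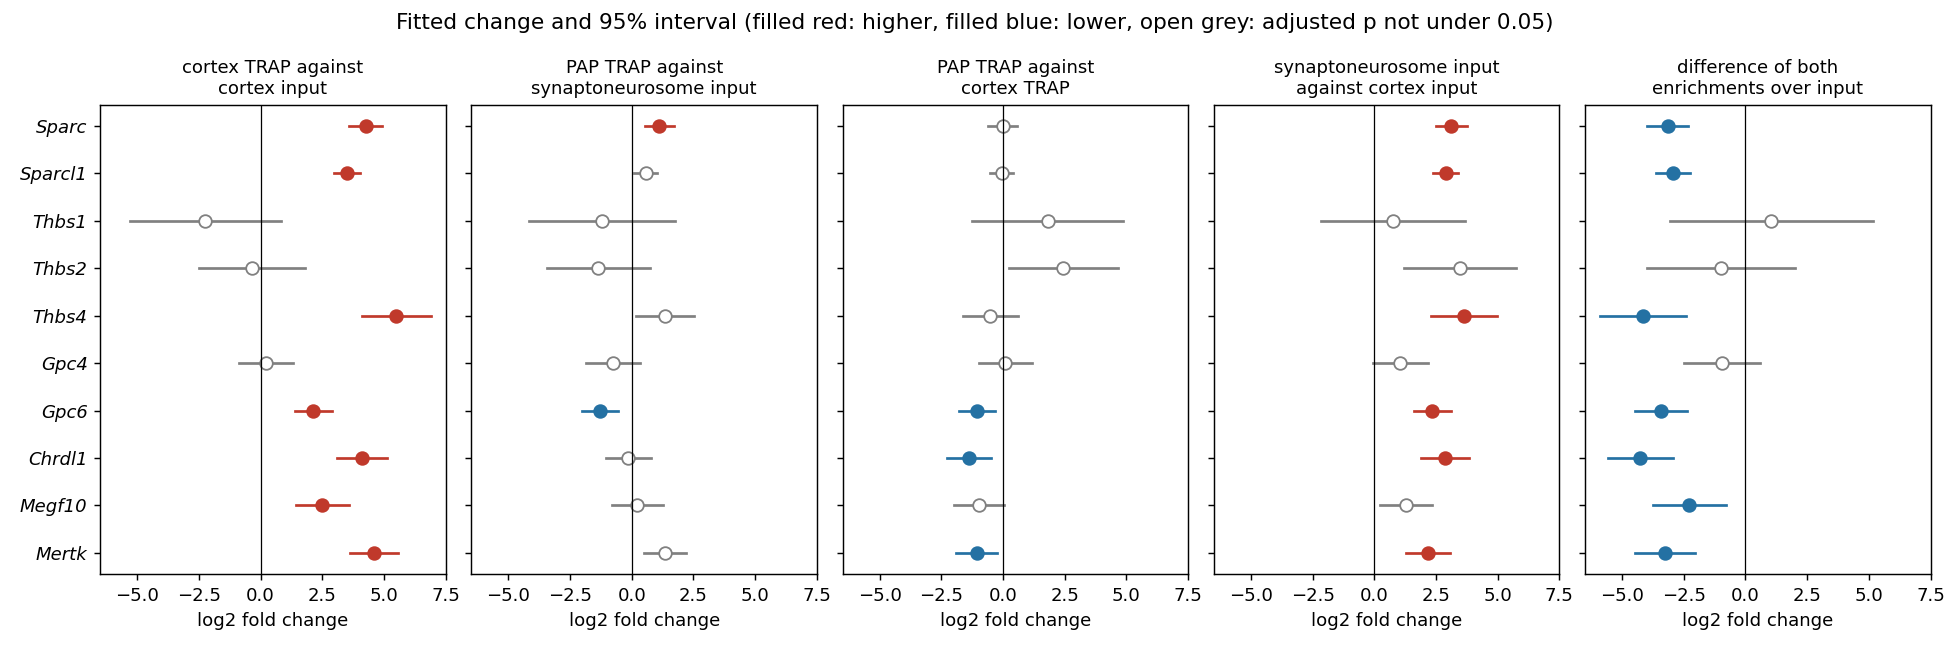
Log2 fold change with its 95% interval (bars) for each of the 10 genes in the 4 comparisons between groups and in the difference of both enrichments, filled (red higher, blue lower) where the adjusted p is under 0.05. Values for cortex TRAP against cortex input reach 5.50 (Thbs4), and those for PAP TRAP against synaptoneurosome input lie between -1.36 (Thbs2) and 1.35 (Thbs4).

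Ranked by level per kilobase of exon, Sparcl1 came first and Sparc second in all 4 groups, without overlap with the next gene. In cortex TRAP they were at 715 ± 112 and 372 ± 18.2 normalized CPM per kilobase (SD, n = 3), followed by Mertk at 30.7 ± 8.36. Chrdl1 (9.84 ± 1.80), Gpc6 (9.04 ± 2.51) and Thbs4 (8.64 ± 2.03) came next and overlapped each other in that order, then Megf10 (4.36 ± 0.242), which overlapped Gpc4 (3.64 ± 1.42). Thbs2 and Thbs1 were last, at 0.105 ± 0.0918 and 0.0501 ± 0.0867, and overlapped. In PAP TRAP the first 3 were Sparcl1 (689 ± 154), Sparc (367 ± 177) and Mertk (14.7 ± 7.95). From Mertk down to Chrdl1 each gene there overlapped the next, in the order Thbs4 (6.04 ± 1.14), Gpc6 (4.36 ± 1.04), Gpc4 (3.89 ± 1.25) and Chrdl1 (3.76 ± 0.780).

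Of 20 genes for neuronal proteins that such factors bind or act on, 14 were lower (background 19.5%) and 1 higher (background 15.9%) in cortex TRAP than in cortex input (median -2.18). Cacna2d1, the thrombospondin receptor, was at 126, 132 and 135 normalized CPM in cortex input and at 5.21, 5.47 and 6.39 in cortex TRAP (-4.52 ± 0.32, adjusted p = 5.59e-09). The 1 higher was Ptprf, a receptor phosphatase (1.04 ± 0.34, adjusted p = 0.0223). In PAP TRAP, 3 of the 20 were lower than in its input (background 1.53%) and 20 of 20 were higher than in cortex TRAP (19.3% of all genes tested). Of general markers, 14 of 16 neuron markers (median 2.45) and 9 of 11 markers of myelinating oligodendrocytes (median 2.87) were also higher in PAP TRAP than in cortex TRAP. Of the same markers, 16 of 16 (median -3.17) and 10 of 11 (median -2.63) were lower in cortex TRAP than in cortex input. Between the inputs, 17 of the 20 genes were higher in the layer (median 1.31, background 7.26%). Of the 16 neuron markers, 3 were higher there and 3 lower (median -0.33, background 2.07% lower). Of the 11 oligodendrocyte markers, 3 were higher there (median 0.65). The neuron markers took 0.518% to 0.791% of nuclear counts in PAP TRAP and 0.200% to 0.314% in cortex TRAP, the oligodendrocyte markers 0.802% to 1.07% and 0.0636% to 0.0937%, with none at 0 in a whole group, and their part in the result was not tested. Cacna2d1 was at 199, 91.7 and 212 in PAP TRAP against 328, 349 and 368 in its input (-1.05 ± 0.27, adjusted p = 0.0340). The AMPA receptor subunit Gria2 was lower as well (-1.18 ± 0.26, adjusted p = 0.0122).

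By Pearson correlation of log2 normalized CPM over the 12 libraries, among 5959 genes of sufficient level, the genes most like Sparc were Cpe (r = 0.995) and Fads1 (0.995), and those most like Sparcl1 were Cpe (0.992), Scg3 (0.992) and Sparc (0.991). Mertk was nearest to Aldh1a1 (0.980), Asrgl1 (0.979) and Gfap (0.978), Chrdl1 to Tpp1 (0.971), Slc39a12 (0.969) and Aqp4 (0.961), and Thbs4 to Rcn2 (0.973), Abhd3 (0.973) and Pla2g7 (0.964). Megf10 was nearest to Abcd2 (0.934), Gpc6 to Cd164 (0.926) and Thbs2 to Rpn1 (0.930). The nearest gene was less alike for Thbs1 (Ncoa6, 0.851) and Gpc4 (Txndc15, 0.828). These values are descriptive, since the points share groups, depth and library preparation.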

How the data were processed

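The authors deposited raw counts per gene (whole numbers, by the files themselves). The submitters' processing notes name HTSeq, STAR, Bowtie2 and Trimmomatic 0.32 without roles. The build, the annotation and whether counting used strand were not given in the sources. Per the labels' protocols, cDNA from 2 ng of RNA was amplified by SPIA, so counts are not independent molecules. Rows naming no gene (20.3% to 55.5% of counts) were left out. Symbols were matched for 40254 of 41388 identifiers, and positions and exon lengths came from GENCODE M21 (GRCm38).

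Genes passing edgeR's filterByExpr (minimum count 10, minimum total 15; 13364 genes) entered 1 quasi-likelihood fit over 12 libraries with TMM scaling (edgeR 4.0.16, R 4.3.3). Adjusted p-values (Benjamini-Hochberg) run over every gene tested and were called at 0.05. SE is the log2 change over the root of F, and intervals are 95%. Named were all 10 genes, their families, Aldh1l1, up to 2 called genes per direction of other lists, and the 3 most correlated genes (mean log2 CPM of at least 3). Elmo2 and some astrocyte markers were named in addition. Some genes that this rule names are not reported here. The 10 genes and the lists were chosen with earlier results of these data known. Alternatives were RLE scaling, no filter, DESeq2 1.42.0, the compared groups alone, a replicate block, no mitochondrial genes, nuclear counts thinned to 1423296 per library, each library left out, and, chosen after seeing the data, GC-corrected offsets (loess span 0.3). Promoter sequences are RefSeq's (GRCm38.p6).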

Additional observations from a re-analysis of the deposited data

Results flagged for a closer look

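For 7 genes the enrichment over input differed between the synaptoneurosome layer and the whole tissue by the interaction term of the edgeR fit. Chrdl1 was at 4.12 over input on the log2 scale in the whole tissue and at -0.14 in the layer, a difference of -4.27 (adjusted p = 7.67e-05). Thbs4 was at 5.50 and 1.35, a difference of -4.15 (adjusted p = 0.00131). Gpc6 was at 2.13 and -1.27, a difference of -3.41 (adjusted p = 7.44e-05). Mertk was at 4.60 and 1.34, a difference of -3.25 (adjusted p = 0.000444). Sparc was at 4.26 and 1.11, a difference of -3.15 (adjusted p = 1.39e-05). Sparcl1 was at 3.49 and 0.56, a difference of -2.94 (adjusted p = 4.4e-06). Megf10 was at 2.50 and 0.23, a difference of -2.27 (adjusted p = 0.0272). Only Gpc6 had enrichments of opposite sign that both passed the threshold on their own. Its decrease in the layer (adjusted p = 0.0442) lost its call under 8 of 14 alternatives (up to 0.230).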

How the results depend on the processing

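Over 744 pairs of a result on the 10 genes and an alternative, 652 kept direction and side of the threshold, 41 lost the call, 16 gained one and 35 changed sign. All sign changes were of values that had not passed. The count of 7 genes higher in cortex TRAP over cortex input held under every alternative. For PAP TRAP over its input, 2 genes were higher with no filter, without mitochondrial genes and by DESeq2, and 0 with thinned counts and GC-corrected offsets. For the same comparison, 0 were lower without mitochondrial genes, with thinned counts and with GC-corrected offsets. For PAP TRAP over cortex TRAP, 1 was lower with thinned counts, GC-corrected offsets and the groups alone, and 1 was higher with no filter and by DESeq2. With 1 library left out, the counts ranged from 0 to 1 (lower, cortex TRAP over input), 0 to 2 and 0 to 1 (higher and lower, PAP TRAP over input), and 0 to 1 and 0 to 2 (higher and lower, between pull-downs).

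Between the pull-downs, Sparc changed sign under RLE scaling (0.02), without mitochondrial genes (0.11), with thinned counts (0.04), with GC-corrected offsets (0.16), by DESeq2 (0.02) and with the groups alone (0.15), and ranged from -0.47 to 0.23 with 1 library left out. Sparcl1 did so without mitochondrial genes (0.08), with thinned counts (0.03), with GC-corrected offsets (0.12) and with the groups alone (0.12), and ranged from -0.25 to 0.21. With thinned counts, Gpc4 in cortex TRAP over input was -0.01 and Megf10 in PAP TRAP over input was -0.02. With 1 library left out, Thbs2 (-0.98 to 0.42) and Gpc4 (-0.24 to 0.63) in cortex TRAP over input, Gpc4 between the pull-downs (-0.19 to 0.47), Chrdl1 (-0.42 to 0.18) and Megf10 (-0.05 to 1.00) in PAP TRAP over input, and the difference of enrichments of Thbs1 (-0.30 to 5.94) also spanned 0. The causes were not tested.

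Counts over all genes moved by more than 1.5 times as follows. PAP TRAP over input: 401 higher became 635 with no filter, 220 thinned, 183 GC-corrected and 686 by DESeq2, and 204 lower became 567 by DESeq2. Between pull-downs, 1949 lower became 1135 thinned and 1285 with the groups alone. Between inputs, 970 higher became 1538 by DESeq2 and 1550 with the groups alone, and 276 lower became 76 thinned, 124 GC-corrected, 497 by DESeq2 and 701 with the groups alone. With 1 library left out they ranged, in the same order, over 193 to 362, 86 to 159, 1179 to 1969, 525 to 769 and 61 to 256, and those with a smaller enrichment in the layer (978) over 627 to 1164.

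No label says that replicate numbers pair the libraries, and deviations of same-numbered libraries correlated at 0.01 to 0.06 and of others at -0.06 to 0.02, with the own number best in 2 or 3 of 3 pairs per comparison, which is a weak hint of pairing from the data, not from the design. With the replicate number as a block, 7 genes were called higher in cortex TRAP over input, 1 higher and 1 lower in PAP TRAP over input, 3 lower between pull-downs, 6 higher between inputs and 7 lower in the difference, so the block changed no call count; Sparc in PAP TRAP over input was 1.05 (adjusted p = 0.0182). The synaptoneurosome inputs, with as few as 1423296 nuclear counts, limit what can be seen of Thbs1 and Thbs2.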

Other observations

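A further list held 16 other regulators of synapses that astrocytes can make, of which 14 were tested. In cortex TRAP against cortex input, 10 were higher (background 15.9%) and 1 lower (background 19.5%), with a median of 2.16. Apoe, a lipid carrier, was higher by 4.74 ± 0.32 on the log2 scale and Bcan, a matrix proteoglycan, by 4.07 ± 0.35, and the neurotrophin Bdnf was lower (-1.71 ± 0.57, adjusted p = 0.0241). In PAP TRAP against its input, Apoe alone was higher (1.21 ± 0.28, adjusted p = 0.0171). In PAP TRAP against cortex TRAP, Apoe (-1.29 ± 0.28) and Bcan (-1.27 ± 0.31) were lower, and the adhesion molecule Nrcam (2.15 ± 0.26) and the proteoglycan Ncan (0.61 ± 0.23, adjusted p = 0.0470) were higher. Gulp1, an adaptor of the engulfment receptors, was lower in PAP TRAP than in cortex TRAP (-3.55 ± 0.82, adjusted p = 0.00243).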
